A study of Mus musculus with 2 samples.

Results

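Venous endothelial cells of mouse limb muscle were chosen from single-cell RNA-seq counts by their detected genes, and 310 of the 10891 cells kept after quality filtering (2.85%) met the rule. A cell first had to pass a blood endothelial gate, with at least 2 of the pan-endothelial genes Pecam1, Cdh5, Flt1 and Ptprb detected, no unique molecular identifier (UMI) of the lymphatic factor Prox1, and under 2 UMIs each of Ptprc and Pdgfra, which mark leukocytes and fibro-adipogenic progenitors (FAPs). This gate held 4605 cells. Among them, a venous cell had at least 2 detected genes of the venous set Selp, Lrg1, Ackr1, Plvap and Olr1, and more of these than of the capillary set (Gpihbp1, Timp4, Rgcc, Cd36, Kdr) and of the arterial set (Sema3g, Gja5, Bmx, Stmn2, Cytl1). The same counting gave 3505 capillary and 276 arterial cells, and 514 gate cells had no type.

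The study asked whether Maraviroc (MVC) changes the niche of aging muscle. Aged C57BL/6 mice, 18 months old at the start, received MVC at 10 mg/kg or the vehicle DMSO by intraperitoneal injection every 2 days for 3 months. Live mononuclear cells were sorted with a viability dye after red cell lysis, and 1 droplet library was made per treatment. The number of mice behind a library was not given in the sources used here, no untreated or young library was compared, and the drug reached the whole animal and not the endothelium alone.

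Venules and small veins receive blood from capillaries and are the main site where leukocytes leave the circulation. Their endothelium stores P-selectin and von Willebrand factor in Weibel-Palade granules and shows selectins, ICAM-1, VCAM-1 and chemokines on its surface, on which leukocytes roll, arrest and cross the wall. Plvap forms the diaphragms of fenestrae and caveolae, and Ackr1 carries chemokines across venular cells.

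The DMSO library held 5437 kept cells (38748234 UMIs, median 5802 per cell) and the MVC library 5454 (35518029 UMIs, median 5195). Venous cells numbered 176 in DMSO, with 1424165 UMIs and a median of 8570 UMIs and 2678 genes per cell. In MVC they numbered 134, with 1020255 UMIs and medians of 7204 UMIs and 2312 genes. They were deeper than capillary cells, whose median was 3606.5 UMIs in DMSO and 3416 in MVC. The libraries shared 9 barcodes, none of them in a venous cell. As doublets, 7 DMSO and 6 MVC venous cells were called, 3.98% and 4.48%. The shares over all kept cells, 4.34% and 4.36%, were set in advance by the number of cells in each library. With 1 library per group no difference below could be set against the spread between animals, and no p-value is given. All 95% intervals (CI) cover counting error only.

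Venous cells formed 7.41% (CI 6.39 to 8.53) of the blood endothelial gate in DMSO and 6.01% (5.06 to 7.08) in MVC, a difference of -1.40 percentage points (-2.84 to 0.0550). As a share of all kept cells they formed 3.24% (2.78 to 3.74) vs. 2.46% (2.06 to 2.90), a difference of -0.780 points (-1.41 to -0.155). The rule counts detected genes, so depth enters it, and the gate cells without a type numbered 172 in DMSO and 342 in MVC, where their median was 1691 UMIs. Of typed cells alone, 7.99% in DMSO and 7.10% in MVC were venous, a difference of -0.884 points (-2.50 to 0.753). Gate cells were also thinned to 2000 UMIs before the rule was applied, which left out 289 DMSO and 541 MVC gate cells below that depth. Among the cells that still passed the gate on their thinned counts, the difference was 0.102 points (-1.63 to 1.88), with 7.53% in DMSO and 7.63% in MVC. No difference in abundance was thus detectable at matched depth in that subset, and the cells left out were not compared.

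The label was checked against 6 venous markers that the rule did not use. Nr2f2, the transcription factor that sets venous fate, reached 253 UMIs per 1000000 UMIs of the type and library (CPM) in DMSO venous cells and 223 in MVC, against 66.9 and 91.0 in capillary cells and 0 and 19.2 in arterial cells. Vwf, the von Willebrand factor gene, stood at 526 and 693 CPM in venous cells, at 55.8 and 72.7 in capillary cells and at 273 and 218 in arterial cells. Nrp2, a co-receptor of venous and lymphatic endothelium, stood at 689.5 and 769 CPM, above 401 and 441 in capillary and 26.5 and 37.4 in arterial cells. These 3 markers were thus higher in venous cells than in both other types in both libraries.

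Of the other 3, Apoe was also higher in venous cells than in both types, by a smaller margin over capillary cells, while Vcam1 and Ephb4 were not. Vcam1, the endothelial ligand of leukocyte integrins, was far above capillary cells (1264 and 1657 CPM vs. 48.0 and 120.0) but below arterial cells (2386 and 2214). Ephb4, the venous receptor of ephrin-B2, was low throughout, at 28.8 and 30.4 CPM in venous, 65.1 and 73.4 in capillary and 47.9 and 62.0 in arterial cells, which goes against its use as a venous marker in these cells. Apoe, the lipid-carrying apolipoprotein, was at 535 and 664 CPM vs. 444 and 417 in capillary and 165 and 118 in arterial cells. The label was kept on Nr2f2, Vwf, Nrp2 and Apoe, which were above both other types in both libraries. Vcam1 was above capillary cells only and Ephb4 above neither type, so these markers do not set venous cells apart here.

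The 5 selecting genes were unequally shared among the cells. Selp, encoding P-selectin, was detected in 97.7% of DMSO and 96.3% of MVC venous cells, Lrg1, encoding a secreted leucine-rich glycoprotein, in 94.9% and 90.3%, and Plvap in 94.3% and 94.0%. Ackr1 was found in 72.2% and 76.9%, and Olr1, a scavenger receptor for oxidised lipoprotein, in 32.4% and 26.9%. All 5 genes were found together in 47 DMSO and 24 MVC cells and only 2 of them in 11 and 12 cells. At the threshold, cells with 2 venous genes had a median of 3527 UMIs in DMSO and 2027.5 in MVC and summed levels of the 6 check markers of 1708 and 2426 CPM. Cells with 5 had medians of 9899 and 8915.5 UMIs and summed levels of 4497 and 5428 CPM. Just outside, 30 DMSO and 21 MVC cells had 2 or more venous genes but were tied with another set, with summed levels of 1852 and 3714 CPM, and 58 and 38 cells had more genes of another set.

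The rule also counted capillary and arterial genes, so their detection describes the cells chosen. At least 1 capillary gene was detected in 97.2% of DMSO and 94.0% of MVC venous cells, mostly the fatty acid transporter Cd36, at 1694 CPM in DMSO and 935 in MVC. At least 1 arterial gene was detected in 40.9% and 62.7%. Among these were Cytl1, a secreted cytokine-like protein found in 33.5% and 47.0% of the cells, and Stmn2, a microtubule regulator found in 13.6% and 33.6%. Bmx was detected as well, in cells of both libraries that held 3 arterial genes. After thinning, Cytl1 was found in 21.9% and 34.5% of venous cells and Stmn2 in 5.62% and 13.4%, against 0% of B cells in both libraries. Sema3g and Gja5 had 0 UMIs in the venous cells of both libraries, which allows up to 2.11 CPM in DMSO and 2.94 in MVC at 3 counts.

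What venous cells held beyond the selecting genes is a description of the cells chosen and not a test, since the types were drawn on this contrast. Over 12143 genes with at least 50 UMIs in the types compared, 130 (1.07%) were at least 2-fold higher in venous cells than in both capillary and arterial cells in both libraries, 125 of them outside the rule, and 125 (1.03%) were at least 2-fold lower, 124 of them outside the rule. The leading genes fell into leukocyte capture, cytokines and receptors of inflammatory signals, coagulation and purine handling, and cell surface and membrane traffic.

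Sele, encoding E-selectin, which captures rolling leukocytes and lies beside Selp at chr1:164048234-164057677 (GRCm38), reached 2165 CPM (CI 2089 to 2243) in DMSO and 2236 (2145 to 2329) in MVC venous cells. Capillary cells held 48.3 and 61.0 CPM and arterial cells 12.2 and 75.9, so neither of these types came near. After thinning, 78.8% of DMSO and 73.1% of MVC venous cells had a Sele UMI and 0% of the B cells of both libraries did, B cells being a type that should lack it. Csf3, encoding the neutrophil growth factor G-CSF (chr11:98701263-98703629), stood at 1621 and 1532 CPM against 18.7 and 18 in capillary and 86.6 and 119 in arterial cells. A Csf3 UMI was found in 61.9% and 56.0% of venous cells. Il6, which was named after its values were seen, stood at 1354 and 1446 CPM vs. 242 and 253 in capillary and 248 and 206 in arterial cells.

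Receptors of inflammatory mediators were also high. Il1r1, the receptor of interleukin-1 (chr1:40225080-40317257), was at 763 and 1070.3 CPM vs. 106 and 165 in capillary and 48.9 and 51.3 in arterial cells. Hrh1, the histamine receptor that opens venular junctions, was at 175 and 266 CPM vs. 13.9 and 23 in capillary and 23.4 and 31 in arterial cells. Lbp, which presents bacterial lipopolysaccharide to its receptor, stood at 479 and 173 CPM against 8.93 and 7.67 in capillary cells and 0 UMIs in arterial cells. FAPs also carried Il1r1 (51.2% and 46.9% of thinned cells), Lbp (23.2% and 17.5%) and Pcdh7 (58.9% and 64.2%), whereas B cells had a UMI of these in at most 11.9%.

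F5, encoding coagulation factor V (chr1:164151838-164220277), stood at 440.3 CPM in DMSO and 383 in MVC vs. 7.12 and 16.8 in capillary cells. An F5 UMI was found in 40.9% and 37.3% of venous cells. Nt5e, the ectoenzyme that makes adenosine from AMP, was at 236 and 305 CPM vs. 4.10 and 4.13 in capillary cells. Insr, the insulin receptor, reached 807 and 636 CPM vs. 78.7 and 89.3 in capillary and 84.6 and 96.2 in arterial cells. The metalloprotease Tll1 stood at 1341 and 1547 CPM, the calcium-binding membrane protein Mctp1 at 2314 and 2175, the protocadherin Pcdh7 at 842 and 779, and the adhesion receptor Adgrg6 at 121 and 248. Cadm3, Ctnnal1 and Ehd3, of cell adhesion and endosomal recycling, completed the 15 leading genes at lower levels, between 69.5 and 215 CPM.

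**Figure D1:**
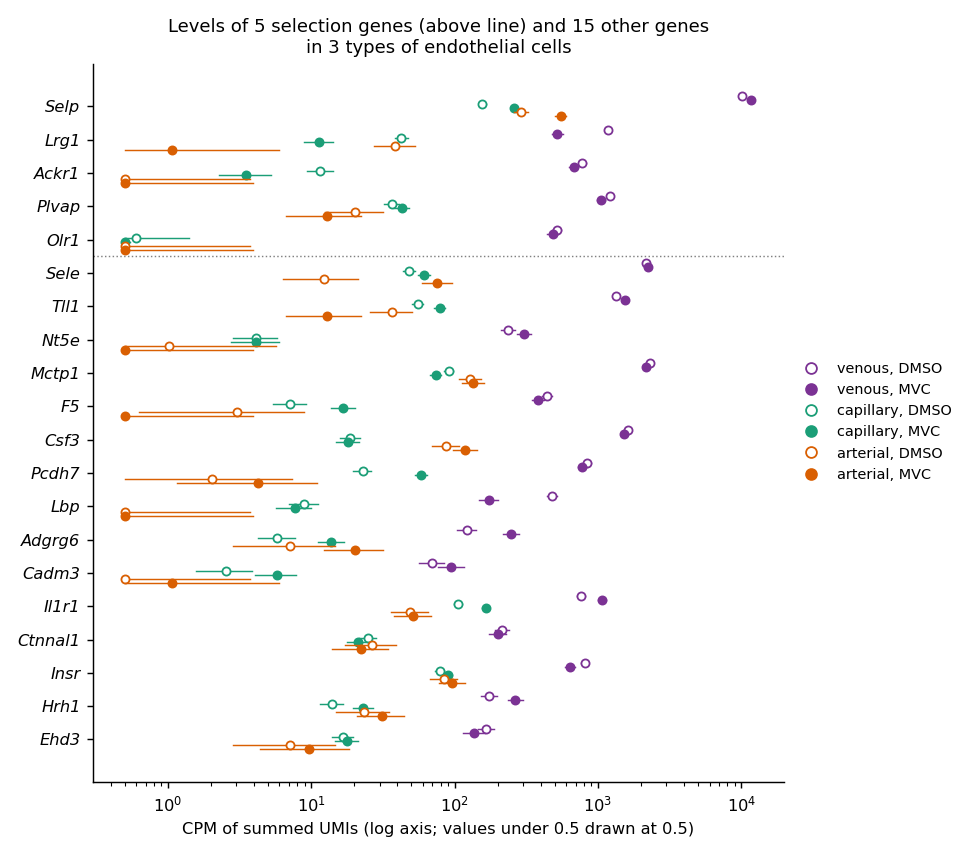
CPM of summed UMIs on a log axis for the 5 selecting genes (above the dotted line) and the 15 leading other genes in venous, capillary and arterial cells of both libraries. Bars are exact 95% Poisson intervals. Every venous point lies to the right of the capillary and arterial points of its gene, as the naming rule requires, with Selp highest at 10175 CPM in DMSO and 11685 in MVC.

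Among the genes lowest in venous cells against both other types, Klf2, the flow-induced transcription factor that restrains endothelial inflammation, was at 120.1 CPM in DMSO and 162 in MVC venous cells vs. 848 and 696 in capillary and 372 and 662 in arterial cells. Efnb2, the arterial ephrin ligand, was at 40.0 and 53.9 CPM vs. 320.0 and 315 in arterial cells. The scaffold gene Slc9a3r2, the kinase gene Map4k3, the growth factor gene Pdgfd and the neutrophil chemokine gene Cxcl2 were low as well. Hspa1a, a heat shock chaperone, was at 1077 and 1131 CPM vs. 6129 and 6573 in capillary cells, and 65.4% of its 31-base sequences also occur in another gene, so its counts cannot be kept apart from those of its copy Hspa1b.

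The treatment question was then put to the venous cells themselves, by comparing summed UMIs of MVC with DMSO members over 5568 genes with at least 50 UMIs. Folds are log2 ratios of CPM with a pseudocount of 10 CPM added, which understates the change of low genes, and ratios given with a CI carry no pseudocount. In MVC 67 genes (1.2%) were at least 2-fold higher and 40 (0.718%) at least 2-fold lower, and the median over all genes was -0.06. The counting interval of the ratio lay above 1 for 776 genes (13.9%) and below 1 for 918 (16.5%). The 122 measured genes outside the rule that were high in venous cells had a median of 0.05, with 4 past 2-fold higher and 3 lower, and 40 intervals above 1 and 24 below. The 54 measured genes that were low in venous cells had a median of 0.19, with 15 intervals above 1 and 4 below.

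Single cells carrying transcripts of other types entered these sums unequally. FAP markers summed to 347 CPM in DMSO venous cells and 1358 in MVC, with 2 or more markers in 14 and 24 cells, and 3 cells held 78.1% and 80.2% of these UMIs. Tendon fibroblast markers summed to 11.2 and 383 CPM (92.6% in 3 MVC cells) and red cell genes to 8.43 and 511 CPM (97.7% in 3 MVC cells). Lymphatic markers summed to 318 and 555 CPM, smooth muscle markers to 628 and 539, pericyte markers to 140.4 and 70.6, macrophage and neutrophil markers to 11.9 and 48.0, and lymphocyte markers to 6.32 and 21.6. Cells with 2 or more lymphatic markers numbered 22 in DMSO and 21 in MVC, and no cell was removed for these markers in any setting below. Satellite cell, muscle fibre and Schwann cell markers stayed at or under 16.7 CPM when Vcam1 was left out. The T and NK cell markers Cd3d, Cd3e, Trac and Nkg7, the B cell marker Ms4a1 and the smooth muscle marker Cnn1 had 0 UMIs in the venous cells of both libraries. Tagln made up most of the smooth muscle sum, with 811 and 523 UMIs. When cells with 2 or more markers of the FAP, smooth muscle, pericyte or immune lists were removed, 154 DMSO and 96 MVC cells remained, with 74 genes past 2-fold higher and 79 lower, of which 33 and 31 were among the first sets.

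The largest MVC ratios came from few cells. Ccl2, encoding the monocyte chemoattractant CCL2, had 23 UMIs in DMSO and 607 in MVC venous cells, but 3 MVC cells held 98.4% of them, and after thinning 3.75% and 4.20% of cells had a UMI. Il33, an alarmin cytokine, had 108 and 499 UMIs with 77.6% in 3 cells. The lymphatic chemokine Ccl21a had 0 and 102 UMIs, all within 3 cells, and 80.6% of its sequence is shared with copies of the gene. Dcn, a FAP proteoglycan, behaved likewise with 81.9% in 3 cells. On the lower side, 76.3% of the DMSO UMIs of Ptgs2, the inducible prostaglandin synthase gene (528 UMIs in DMSO, 103 in MVC), lay in 3 cells. Without genes with above 50% of their UMIs in 3 cells, 37 genes were past 2-fold higher and 31 lower, and the 24 genes named next for their ratios were not among those left out.

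**Figure D2:**
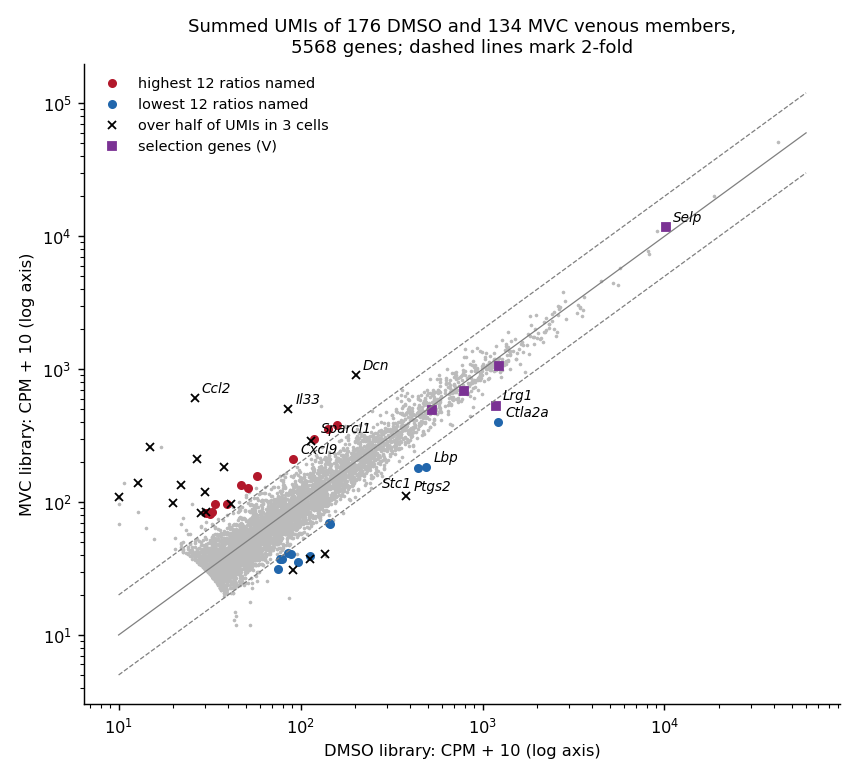
CPM plus 10 in MVC (vertical, log axis) against DMSO (horizontal, log axis) venous cells for 5568 genes, with dashed lines at 2-fold. The cloud follows the diagonal, crosses mark genes of at least 100 UMIs with above 50% of their UMIs in 3 cells, such as Ccl2 with 607 MVC UMIs, and Lrg1, Ctla2a, Lbp and Stc1 lie below it.

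Among the 12 highest ratios, Sparcl1, a secreted matricellular protein (chr5:104079111-104113733), stood at 109 CPM (92.4 to 127) in DMSO and 290.1 (258 to 325) in MVC, a ratio of 2.67 (2.19 to 3.26), and 48.3% of DMSO vs. 67.2% of MVC cells had a UMI. Vcan, the proteoglycan versican, stood at 47.7 and 148 CPM (ratio 3.10, 2.31 to 4.19) and Itih5, a hyaluronan-binding inhibitor chain, at 20.4 and 72.5 (3.56, 2.29 to 5.68). FAPs express these genes, with a UMI in 33.7% and 42.2% of thinned FAPs for Vcan and in 48.0% and 59.2% for Itih5, and the part of FAP transcripts in these ratios was not tested. With the cells that carried markers of other types removed, the log2 ratios were 1.53 for Sparcl1, 1.30 for Vcan and 1.83 for Itih5, against 1.34, 1.45 and 1.44 with all cells.

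Kirrel3, a homophilic adhesion protein (chr9:34485894-35036716), was at 148 CPM in DMSO and 369.5 in MVC, a ratio of 2.49 (2.10 to 2.97), and at 65.5 and 129.9 CPM in capillary cells. B cells had no Kirrel3 UMI, and 19.4% and 38.7% of thinned venous cells had one. Mdga2, another cell-surface adhesion protein, stood at 23.9 and 86.3 CPM (3.61, 2.41 to 5.54), and it was found in 5.11% and 14.9% of the cells. Nr3c2, the mineralocorticoid receptor, was at 37.2 and 124 CPM (3.34, 2.41 to 4.70) and was also higher in MVC capillary (121 and 245 CPM) and arterial cells (93.8 and 214). Pltp, the phospholipid transfer protein, was at 41.4 and 119 CPM (2.86, 2.08 to 3.98), and capillary and arterial cells shared its direction with log2 ratios of 1.12 and 0.78.

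Auts2, a chromatin-associated regulator, differed between types: it was at 131 CPM in DMSO and 342 in MVC venous cells (2.61, 2.17 to 3.13) but at 860.3 and 848 CPM in capillary cells. Rnf220, a ubiquitin ligase, stood at 29.5 and 86.3 CPM, the long noncoding Mir100hg at 22.5 and 74.5, and Trim12a, a tripartite motif protein, at 21.8 and 71.6. Trim12a had a UMI in 19.3% and 21.4% of thinned B cells, more than in venous cells (1.88% and 10.1%), so free RNA cannot be told apart from expression for it by these shares.

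The 3 of the 12 lowest ratios with the most UMIs were those of Ctla2a, Lbp and Stc1. Lbp (chr2:158306493-158332852) had 682 UMIs and 479 CPM (444 to 516) in DMSO and 177 UMIs and 173 CPM (149 to 201) in MVC, a ratio of 0.362 (0.305 to 0.428). A UMI was found in 48.8% of DMSO and 27.7% of MVC cells after thinning, and its log2 ratio ran from -1.30 to -1.64 under the alternatives tried. Stc1, the secreted glycoprotein stanniocalcin-1 (chr14:69029238-69041804), was at 433 and 171 CPM (ratio 0.394, 0.331 to 0.467). The shares of thinned cells with Stc1 lay close together, at 24.4% and 22.7%, although the levels did not. Capillary cells were low for both genes, with Stc1 at 32.8 and 27.6 CPM.

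Ctla2a, a cathepsin inhibitor (chr13:60934155-60936625), had the lowest log2 ratio of the 12, with 1204 CPM (1147 to 1262) in DMSO and 390.1 (353 to 430.4) in MVC (0.324, 0.290 to 0.362). In capillary cells it was at 1238 and 375 CPM, so it was lower in both types. Of its 31-base sequences 39.4% also occur in other genes, among them Ctla2b. The selecting gene Lrg1 was lower as well, with 1173 and 521 CPM (0.445, 0.403 to 0.491), and was at 42.6 and 11.4 CPM in capillary cells. The other selecting genes stayed between ratios of 0.864 (Plvap) and 1.15 (Selp). The rule used the detection of Lrg1 and these genes, so their ratios describe the cells chosen.

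Nupr1, a stress-induced chromatin protein, was at 65.3 and 21.6 CPM (0.330, 0.197 to 0.530) and Bax, the pro-apoptotic BCL2 family member, at 68.8 and 27.4 (0.399, 0.252 to 0.612). Ndufb2, a subunit of respiratory complex I, was at 78.6 and 30.4 CPM, Eny2, of the transcription and mRNA export machinery, at 134 and 59.8, and Znrd1, an RNA polymerase I subunit, at 67.4 and 27.4. The phosphodiesterase-anchoring gene Pde4dip was at 75.1 and 31.4 CPM, Cmah, a sialic acid hydroxylase, at 136 and 58.8, Wdr89 at 103 and 29.4, and the noncoding Bc1 at 87.1 and 25.5. Thinned B cells had a UMI of Wdr89, Cmah and Bax at least as often as venous cells of the same library, and 40.6% of the sequence of Bc1 is shared with other genes. Wdr89 and Bc1 were also lower in capillary cells (log2 ratios of -0.92 and -1.16) and arterial cells (-1.29 and -2.04).

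**Figure D3:**
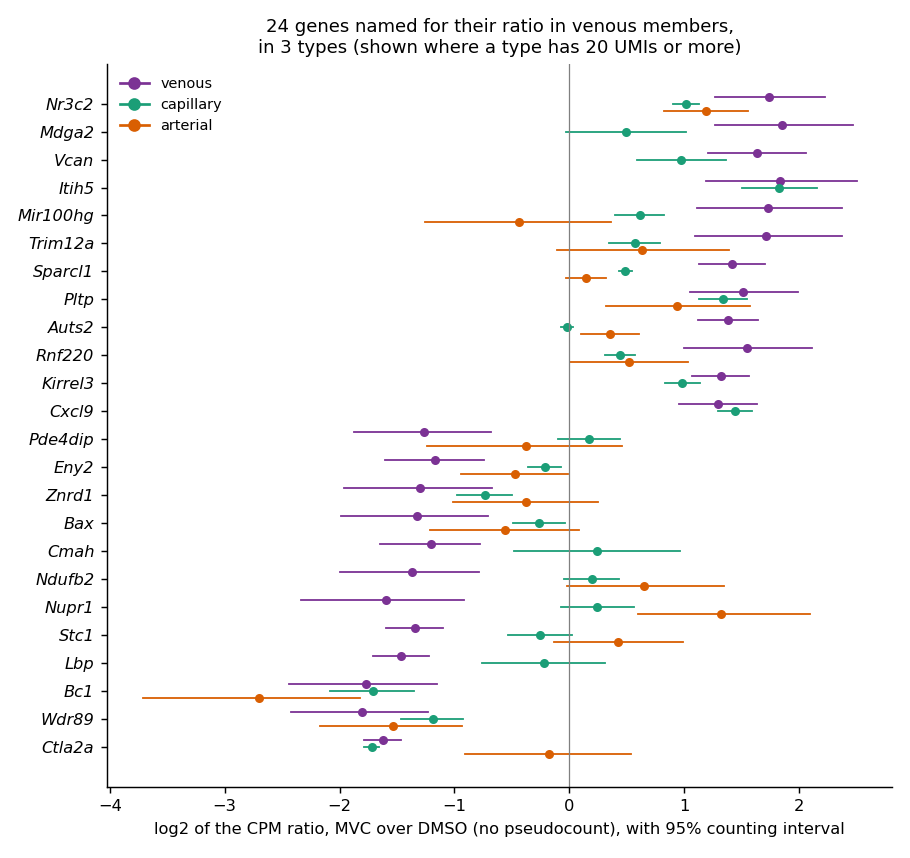
Log2 of the CPM ratio (MVC over DMSO, no pseudocount) with 95% counting intervals for the 12 highest and 12 lowest named genes, in venous, capillary and arterial cells. Venous intervals lie clear of 0 by selection, Auts2 in capillary cells lies at 0, and Ctla2a is low in venous and capillary cells alike.

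Of 22 measured interferon-stimulated genes, 19 had a ratio above 1 and 3 below, 12 had a counting interval above 1 and 1 below, and 2 were past 2-fold higher. Over all genes tested 43.5% had a ratio above 1, and intervals lay above 1 for 13.9% and below 1 for 16.5%, and the counts of the lists below stand against the same shares. Their median log2 ratio was 0.42, against -0.06 over all genes, and 0.58 in capillary and 0.49 in arterial cells of the same libraries. Ifit1, which blocks translation of viral RNA, had the highest ratio, with 17 and 60 UMIs, 11.9 and 58.8 CPM (4.93, 2.84 to 9.01), and a mean of single cells reduced its log2 ratio from 1.65 to 0.78. Guanylate-binding proteins, GTPases that attack membranes of intracellular microbes, were better measured. Gbp5 stood at 82.2 CPM (67.9 to 98.5) and 198 (172 to 227), a ratio of 2.41 (1.91 to 3.05), and Gbp2 at 112 and 215 CPM (1.92, 1.56 to 2.37).

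Other members named after their values were seen gave the same direction at smaller size, with Isg15, a ubiquitin-like modifier, at 144 and 213 CPM (1.48, 1.22 to 1.80). Irf1, a transcription factor of the interferon response, was level at 213 and 218 CPM. Gbp5 had a UMI in 9.38% of DMSO and 24.4% of MVC thinned venous cells, against 7.56% and 7.14% of B cells. The DMSO share was thus close to that of B cells, and whether B cells express Gbp5 themselves was not tested. Of the 16 measured genes of MHC class I presentation, which interferon also induces, 13 were above and 3 below a ratio of 1, 4 intervals lay above 1 and none below, and the median was 0.18. Of the MHC class II list 1 gene was measured, the invariant chain gene Cd74, with 15 and 45 UMIs in venous cells (10.5 and 44.1 CPM), and B cells, which express it, had a UMI in 98.3% and 92.9% of thinned cells vs. 1.88% and 6.72% of venous cells, so free RNA cannot be told apart from expression. The uncertain members here are H2-Q4, H2-Q6 and H2-Q7, which share much of their sequence.

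The promoters of these genes were read for the interferon-stimulated response element (ISRE), searched as GAAA, any 2 bases, GAAA, and for an NF-kB motif, GGG, any 2 bases, TTTCC, on both strands of the 300 bases from 250 before to 50 after the start (RefSeq, GRCm38.p6). Genes with above 50% of their MVC UMIs in 3 cells were left out. The ISRE was present in 7 of the 9 promoters available for the remaining interferon-stimulated genes with an interval above 1. It was present in 3.44% of all 32851 promoters. The NF-kB motif was in 1 of the 9 and in 1.63% of all promoters. Of the 6 remaining chemokine and cytokine genes with an interval above 1 and a promoter, 2 held the NF-kB motif (Cxcl1, Csf1). The ISRE was held by 1 (Cxcl10). A match is a description of letters, not of binding, and sites that differed from the pattern at a fixed base were not counted. The promoters of 3 interferon-stimulated genes and 2 chemokine genes are shown because their genes had intervals above 1, 5′ to 3′ on the strand of the gene, with ISRE and NF-kB matches in capitals.
Ifit1: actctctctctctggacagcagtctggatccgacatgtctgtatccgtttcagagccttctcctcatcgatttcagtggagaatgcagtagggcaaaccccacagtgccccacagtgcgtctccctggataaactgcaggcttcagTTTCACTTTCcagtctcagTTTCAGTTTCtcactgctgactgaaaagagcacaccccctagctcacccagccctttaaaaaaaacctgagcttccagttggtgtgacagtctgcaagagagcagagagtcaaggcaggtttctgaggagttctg
Gbp5: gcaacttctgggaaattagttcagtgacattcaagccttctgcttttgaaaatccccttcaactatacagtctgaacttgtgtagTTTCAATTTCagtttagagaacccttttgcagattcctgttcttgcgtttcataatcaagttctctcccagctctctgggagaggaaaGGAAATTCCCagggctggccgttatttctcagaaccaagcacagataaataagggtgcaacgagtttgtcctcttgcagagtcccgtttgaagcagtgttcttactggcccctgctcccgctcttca
Gbp2: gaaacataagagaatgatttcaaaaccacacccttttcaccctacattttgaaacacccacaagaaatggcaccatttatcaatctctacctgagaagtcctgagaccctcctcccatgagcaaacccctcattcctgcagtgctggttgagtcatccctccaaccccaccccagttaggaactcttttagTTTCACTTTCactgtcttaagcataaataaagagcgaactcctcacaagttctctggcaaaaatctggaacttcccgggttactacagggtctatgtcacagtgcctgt
Cxcl9: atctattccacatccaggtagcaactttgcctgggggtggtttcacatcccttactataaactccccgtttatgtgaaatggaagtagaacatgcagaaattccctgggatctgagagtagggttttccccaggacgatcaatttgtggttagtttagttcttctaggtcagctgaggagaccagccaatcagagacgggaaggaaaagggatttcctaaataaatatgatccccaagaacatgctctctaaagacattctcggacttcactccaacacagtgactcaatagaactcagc
Cxcl10: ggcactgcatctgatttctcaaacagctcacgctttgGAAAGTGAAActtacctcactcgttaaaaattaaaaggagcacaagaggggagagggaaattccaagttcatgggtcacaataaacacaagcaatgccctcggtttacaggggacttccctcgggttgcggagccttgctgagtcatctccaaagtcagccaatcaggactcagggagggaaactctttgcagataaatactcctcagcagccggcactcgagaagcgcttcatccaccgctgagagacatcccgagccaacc

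Ifit1 (chr19:34640639-34640938, plus strand) held 2 ISRE matches, the first at -104 from the start, and Gbp2 (chr3:142620413-142620712, plus strand) held 1 at -59. Gbp5 (chr3:142496684-142496983, plus strand) held an ISRE match at -165 and an NF-kB match at -77. Cxcl10 (chr5:92348840-92349139, minus strand) held an ISRE match at -213, and neither motif was found in the window of Cxcl9 (chr5:92328030-92328329, minus strand).

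Chemokines and cytokines, the signals venular cells present to leukocytes, gave a median of 0.55 over 16 measured genes, the highest of the 28 lists that had at least 4 measured genes and were not markers of another cell type, with 13 above and 3 below a ratio of 1, 10 intervals above 1 and 1 below, and 6 past 2-fold. Few cells drove much of it: without genes with above 50% of their UMIs in 3 cells the median was 0.22, and without cells carrying markers of other types 0.24. Capillary cells gave 0.21 and arterial cells -0.07. Cxcl9, which draws T cells through CXCR3, remained among the 12 highest, with 116 and 204 UMIs and 81.5 CPM (67.3 to 97.7) in DMSO and 199.9 (173 to 229) in MVC, a ratio of 2.45 (1.95 to 3.11). A Cxcl9 UMI was found in 13.8% and 26.9% of thinned venous cells vs. 0% and 2.38% of B cells, and its log2 ratio was 1.5 without the cells carrying other markers.

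Cxcl10, a further CXCR3 ligand and like the next gene named after its values were seen, was at 166 and 365 CPM (2.19, 1.86 to 2.59), and capillary cells held 83.3 and 182 CPM. Cxcl12, the CXCR4 ligand, was at 72.3 and 145 CPM (2.01, 1.55 to 2.61), while capillary cells were level at 909.8 and 939. The neutrophil chemokine Cxcl1 was at 685 and 926 CPM (1.35, 1.24 to 1.48). The cytokines Csf3 and Il6, both high in venous cells, did not differ beyond counting error: Csf3 had a ratio of 0.945 (0.886 to 1.01) and Il6 one of 1.07 (0.997 to 1.14).

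**Figure D4:**
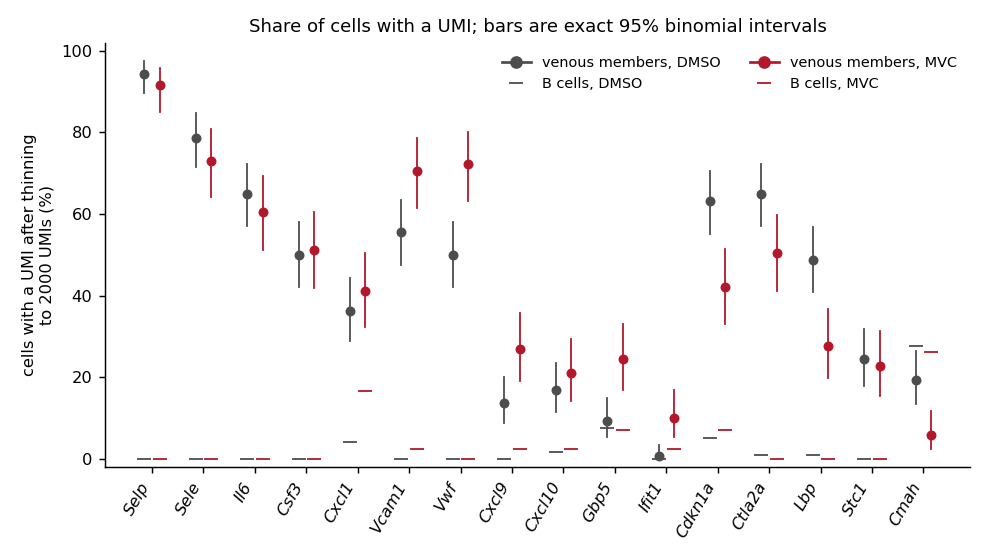
Percent of venous cells with at least 1 UMI of a gene after thinning to 2000 UMIs, in 160 DMSO (grey) and 119 MVC (red) cells, with exact 95% binomial intervals, and short dashes for B cells of the same library. Vcam1 stands at 55.6% and 70.6%, Cxcl9 at 13.8% and 26.9% and Lbp at 48.8% and 27.7%. The 2 intervals of Lbp lie apart, whereas those of Vcam1, Cxcl9, Sele, Il6, Csf3 and Stc1 overlap.

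The NF-kB feedback genes had a median of 0.20 over 15 genes, with 9 intervals above 1 and none below. Tnfaip3, the ubiquitin-editing inhibitor A20, was at 87.1 and 149 CPM (1.71, 1.34 to 2.19), Birc3, an inhibitor of apoptosis, at 143 and 224 (1.57, 1.30 to 1.91), and Relb, an NF-kB subunit, at 117 and 164 (1.40, 1.13 to 1.75). Nfkbia, the inhibitor IkBa and the most abundant of the 4, was nearly level at 2470.2 and 2669 CPM. B cells had UMIs of Tnfaip3, Birc3 and Relb at least as often as venous cells in DMSO.

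The leukocyte adhesion list had a median of -0.08 over 14 genes outside the rule, with 1 interval above 1 and 4 below. The exception on the upper side was Vcam1 (chr3:116109949-116129688), at 1264 CPM (1206 to 1324) in DMSO and 1657 (1579 to 1738) in MVC, a ratio of 1.31 (1.23 to 1.40), with a UMI in 55.6% and 70.6% of thinned cells. Sele had a ratio of 1.03 (0.978 to 1.09) and Icam1 one of 0.977 (0.912 to 1.05), so neither differed beyond counting error. The selecting gene Selp had a ratio of 1.15 (1.12 to 1.18), which describes the cells chosen, since the rule used its detection. Bst1, an ectoenzyme of NAD metabolism, was at 40.7 and 21.6 CPM (0.529, 0.309 to 0.878).

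Vwf (chr6:125546774-125686679) was at 526 CPM (489 to 565) in DMSO and 693 (643 to 746) in MVC, a ratio of 1.32 (1.19 to 1.46), and arterial cells held 273 and 218 CPM. The venous identity list as a whole had a median of 0.16 over 21 genes, with 10 intervals above 1 and 3 below. The haemostasis list gave a median of 0.02 over 15 genes, and only Tfpi2, a serine protease inhibitor with 26 and 56 UMIs, was past 2-fold. Within the granule list Myrip, which tethers Weibel-Palade bodies to actin, was at 47.7 and 97.0 CPM (2.03, 1.48 to 2.81), and its lowest entry is Ctla2a, which is no granule protein.

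The basement membrane and matrix list had a median of 0.21 over 23 genes with 12 intervals above 1 and 2 below, and 0.05 without cells that carried markers of other types. Lama4, the laminin chain of vessel walls, was at 105 and 201 CPM (1.92, 1.55 to 2.39), Nid1, which links laminin to collagen IV, at 133 and 229 (1.72, 1.41 to 2.09), and Timp3, a metalloprotease inhibitor, at 567 and 899.8 (1.59, 1.44 to 1.75). FAPs had Nid1 in 62.5% and 66.5% of thinned cells and Timp3 in 61.3% and 59.3%.

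The lowest median of the 28 lists belonged to the integrated stress response, which lowers translation and induces amino acid supply through ATF4. It was -0.54 over 9 measured genes, 8 with a ratio below 1, 6 with an interval below 1 and 1 above, vs. -0.30 in capillary and -0.26 in arterial cells, and it ran from -0.39 to -0.65 under the alternatives. Atf4 itself (chr15:80255184-80257541) was at 468 CPM (433 to 505) in DMSO and 315 (281 to 351) in MVC, a ratio of 0.672 (0.586 to 0.769). Ddit3, the pro-apoptotic factor CHOP, was at 51.3 and 24.5 CPM (0.478, 0.291 to 0.762), and Sesn2, a sestrin that restrains mTORC1, at 36.5 and 14.7 (0.403, 0.211 to 0.726). The paired amino acid transporter genes Slc3a2 (456 and 312 CPM) and Slc7a5 (73.7 and 47.0) were lower together, whereas the cystine transporter gene Slc7a11 was at 349 and 453 CPM, with 51.1% of its MVC UMIs in 3 cells. None of the 5 promoters available held the ISRE or the NF-kB motif.

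Cell cycle inhibitors and p53 targets did not all share a direction: of 16 measured genes 12 had a ratio below 1 and 4 above. Cdkn1a, encoding the CDK inhibitor p21 (chr17:29090976-29100727), was at 839.8 CPM (793 to 889) in DMSO and 436 (397 to 479) in MVC, a ratio of 0.519 (0.465 to 0.580), and 63.1% vs. 42.0% of thinned venous cells had a UMI. Capillary cells held 1340.1 and 822 CPM and arterial cells 1119 and 763, in the same direction. Cdkn1c, encoding p57, was higher at 12.6 and 40.2 CPM (3.18, 1.79 to 5.88), on 18 and 41 UMIs. Over 16 measured genes the median was -0.18, with 3 intervals above 1 and 6 below, and the p53 target Mdm2 had a ratio of 0.841 (0.573 to 1.22).

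Genes that tissue dissociation can induce had medians near that of all genes, 0.03 over 21 immediate early genes and 0.00 over 16 heat shock chaperones, but single members differed. Egr1 was at 502 and 840.0 CPM (1.67, 1.51 to 1.85) and the chaperone Hsph1 at 375 and 656 (1.75, 1.56 to 1.96). Without cells carrying other markers the medians were 0.33 and 0.17. Id1, a target of BMP signalling, was at 234 and 117 CPM (0.499, 0.401 to 0.617), and its list of TGF-beta and BMP responses had a median of -0.15 over 15 genes. Glucocorticoid-responsive genes had a median of -0.22 over 15 genes, led downward by Ctla2a, and NRF2 targets with ferritins one of -0.17 over 14. The rest of the 28 lists had medians between -0.18 and 0.14, among them proliferation over 5 genes, the circadian clock over 8 and Notch over 7.

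**Figure D5:**
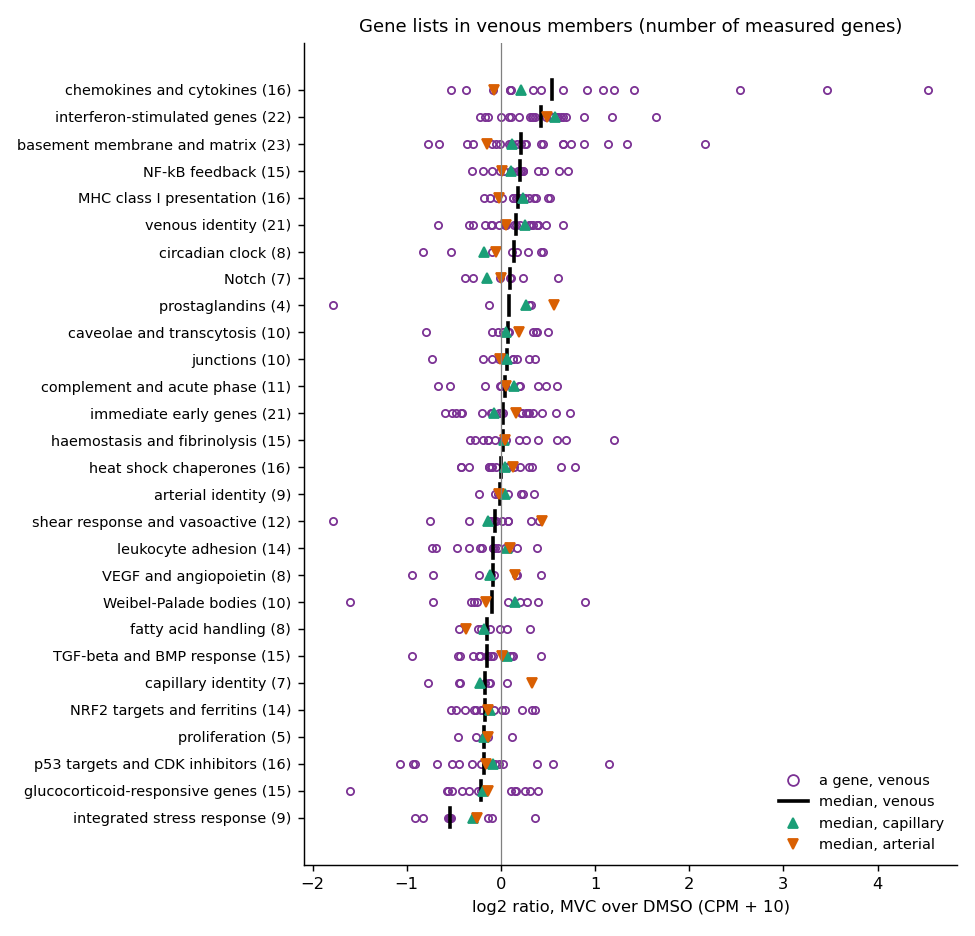
Log2 ratios of MVC over DMSO (CPM plus 10) of single genes in venous cells (circles) and the median of each list in venous (bars), capillary and arterial cells (triangles), with the number of measured genes, for the 28 lists that had at least 4 of them and were not markers of another cell type. Of these, chemokines and cytokines stand highest at 0.55 and the integrated stress response lowest at -0.54, and the interferon medians of all 3 types lie between 0.42 and 0.58.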

How the data were processed

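Single-cell RNA-seq libraries of limb muscle mononuclear cells (10x Genomics) were analysed, 1 from DMSO-treated and 1 from MVC-treated mice, grouped by the treatment given per the labels. The deposited values were raw UMI counts per gene and barcode, made by the authors, whose processing notes name Cell Ranger 7.0.0, Seurat 5.0.1 and mm10. Both matrices listed 32285 genes. Which annotation was used, and whether intronic reads were counted, was not given in the sources used here. Free RNA was not removed.

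A cell was kept from 500 detected genes upward and up to 10% mitochondrial UMIs, the filter in the study's methods, and doublets were scored, kept, and removed in an alternative. Cell types were rebuilt from marker genes, so that differences from the study may come from them. UMIs were summed per type and library and scaled to 1000000 (CPM). Intervals (95%) were exact Poisson for levels, exact conditional for ratios, Clopper-Pearson for shares and Newcombe for differences. For shares of cells, each cell was thinned to 2000 UMIs, which left out 16 DMSO and 15 MVC venous cells. B cells had at least 3 of 4 B cell marker genes, and FAPs at least 2 UMIs of Pdgfra. No test was possible with 1 library per group.

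Named genes were the 12 highest and 12 lowest ratios among genes with at least 100 UMIs and a counting interval that excludes 1, without rule genes, mitochondrial, ribosomal, haemoglobin, immunoglobulin, sex-linked and model-numbered genes and genes with above 50% of their UMIs in 3 cells, up to 4 members of each of 40 gene lists, and the 15 highest and 8 lowest genes of venous cells. Some items are not reported here. The members and lists were chosen with earlier results of these data known. Gene positions came from GENCODE M21 (GRCm38), promoters from RefSeq, and shared sequence was counted over the transcripts as 31-base words. Python 3.11.15, NumPy 2.4.6, SciPy 1.17.1, pandas 2.3.3, scikit-learn 1.9.0 and matplotlib 3.10.9 were used, and the ratio script was tested on simulated data. Alternatives were doublet removal, a stricter cell filter, at least 3 venous genes, removal of cells with markers of other types, the rule after thinning, a capillary set without Timp4, other minimum counts, another pseudocount, scaling by the median, and a mean over cells.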

Additional observations from a re-analysis of the deposited data

Results flagged for a closer look

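Among the genes named for the highest or lowest ratios, the leading venous genes and the venous markers, 6 had log2 ratios of MVC over DMSO of opposite sign in venous cells and in another endothelial type with both counting intervals excluding 1, and the difference between the types was not tested, since each type had 1 library per group. Apoe had a log2 ratio of 0.31 in venous cells vs. -0.09 in capillary and -0.46 in arterial cells. F5 had -0.20 in venous vs. 0.65 in capillary cells, where its level was 7.12 CPM in DMSO. Insr had -0.34 vs. 0.16 in capillary cells. Nupr1 had -1.25 vs. 1.04 in arterial cells. Vcam1 had 0.39 vs. -0.11 and Vwf 0.39 vs. -0.31 in arterial cells, which were the type with the highest Vcam1 level. Outside these genes, Cd74 had 1.40 in venous vs. -0.29 in capillary cells on 15 and 45 venous UMIs, and Rgs5, with 71.4% of its DMSO UMIs in 3 venous cells, -1.60 vs. 3.47 in arterial cells.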

How the results depend on the processing

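No paired analysis was possible because each group held 1 library, and no replicate could be left out. Of 1440 values of 144 named single genes whose interval excluded 1, under the alternatives, 1284 moved by less than their counting interval, 129 moved further and 27 changed sign. Of 364 values of 28 list medians, 341 stayed within the counting error of the median. The cause of each change below was not tested. The member share difference was 0.102 points with the rule applied after thinning.

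The counts of genes past 2-fold, 67 higher and 40 lower, became 127 and 72 with a minimum of 20 UMIs, 44 and 22 with 100, 115 and 118 with a pseudocount of 1 CPM, and 37 higher with genes held by few cells left out. With cells carrying markers of other types removed, 79 were lower. In that setting the medians were 0.26 for venous identity, 0.22 for haemostasis, 0.33 for immediate early genes, 0.17 for heat shock chaperones, -0.39 for NRF2 targets and 0.0523 for basement membrane. With tendon and red cell markers counted too, a setting added after seeing the data, 85 were lower and the medians were 0.25, 0.20, 0.28, 0.20, -0.37 and 0.0659, and fatty acid handling was at 0.0714. With the rule after thinning, immediate early genes were at 0.18, heat shock chaperones at -0.0749 and basement membrane at 0.11. With doublets removed, heat shock chaperones were at 0.0881. Prostaglandins were at 0.30 with a minimum of 20 UMIs and, like immediate early genes at 0.12, without genes held by few cells (added after seeing the data). Glucocorticoid-responsive genes were at -0.0324 with a minimum of 100 UMIs and at 0.0471, reversed, as a mean over cells, where venous identity was at 0.28.

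Single genes changed sign as follows. With cells carrying other markers removed, Ccl7 was at -0.64, Dcn at -0.0660, Egfr at -0.0116, Fmod at -0.00660, Nr4a1 at 0.0817, Slc7a11 at -0.38, Tnc at -0.0187, Tnfaip6 at -0.0917 and Tslp at -0.19. With tendon and red cell markers too, Ccl7 was at -0.64, Dcn at -0.0181, Klf4 at 0.0570, Nr4a1 at 0.14, Slc7a11 at -0.32, Tnfaip6 at -0.0705 and Tslp at -0.18. With the rule after thinning, Ccl2 was at -0.45, Col3a1 at -1.57, Fmod at -0.59, Fn1 at -0.22, Mctp1 at 0.0325, Nr4a1 at 0.11 and Tslp at -0.0227. Fmod was at -0.59 without Timp4 in the capillary set. As a mean over cells, Col3a1 was at -0.26, Klf4 at 0.0537 and Plvap at 0.0197. Depth limits what could be seen: a gene of 50 UMIs has a wide counting interval, and 31 venous cells held under 2000 UMIs.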

Other observations

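Some transcripts were unevenly spread among venous cells of both libraries after thinning to 2000 UMIs. Hdac9, a class II histone deacetylase, had a UMI in 48 of 160 DMSO and 52 of 119 MVC cells, while its highest cell held 39 and 27 UMIs. Camk1d, a calmodulin-dependent kinase, had a UMI in 88.8% and 90.8%, with a median of 3 UMIs and a highest cell of 46 and 71. Nts, encoding neurotensin, was found in 9 DMSO and 7 MVC cells, and 3 cells held 69.2% and 82.7% of its UMIs. Fos, an immediate early gene, was found in 26.2% and 37.8%, and its highest cell held 21 and 33 UMIs.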
